A study of Mus musculus with 6 samples.

Results

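The genes described here mark the layers of the cerebral cortex: 5 genes of deep-layer neurons (Fezf2, Ccn2, Tbr1, Crym and Pcp4) and 5 of upper-layer neurons (Cux1, Cux2, Pou3f2, Mef2c and Lmo4). Their probe sets were found by gene symbol in the platform annotation, and Ccn2 stands for the older name Ctgf. All 10 genes had at least 1 probe set, out of 8251 genes with a named probe set on the array, and together they had 14 probe sets. RNA came from the visual cortex of 4 wild-type (C57Bl6) mice, which had 1 eye removed at postnatal day 100 (P100) and were killed 4 days later at P104. The deprived group holds 3 arrays of the hemisphere contralateral to the removed eye, which lost its main input, and the non-deprived group holds 3 arrays of the ipsilateral hemisphere. Both groups therefore come from enucleated mice, and no array of cortex from mice with both eyes is part of this comparison. The series' text speaks of pooled samples without giving the number of mice in a pool or saying whether the 3 arrays of a group are separate pools, so the p-values below measure only the spread between these arrays, which may be technical.

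The neocortex is built in layers, and excitatory neurons of each layer differ in the genes they express and in where their axons go. Deep-layer neurons send axons to the thalamus, brainstem and spinal cord, whereas upper-layer neurons mostly connect cortical areas with each other, and layer 4 between them receives the thalamic fibres that carry signals from the eyes. Fezf2 and Tbr1 specify deep-layer projection neurons during development, Cux1, Cux2 and Pou3f2 (also called Brn2) do so for upper layers, and many of these genes stay on in the adult.

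Signals are MAS5 intensities, an arbitrary brightness unit on a linear scale, and the level of a probe set cannot be set against that of another. A log2 change is the deprived minus the non-deprived mean of log2(signal + 16), which understates changes of dim probe sets. It was tested with limma over 7453 probe sets, the 60% with the highest mean signal, and an adjusted p under 0.05 counted as a call. The filter let through 12 of the 14 probe sets and 9 of the 10 genes. A dim probe set of Cux1 and the single Pcp4 probe set stayed under it.

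None of the 9 tested genes passed (adjusted p from limma between 0.77 and 0.99 over their 12 probe sets). Over all probe sets 13 passed, which is 0.174%. At an unadjusted p under 0.05 the count was 2 of the 9 genes, Fezf2 and Ccn2, where the share over all probe sets was 5.09%. It was 1 (Fezf2) when non-deprived replicate 3, deprived replicate 1 or deprived replicate 3 was left out, and 3, with Cux2 added, when deprived replicate 2 was. Fezf2 and Ccn2 are both deep-layer genes, and both read lower in deprived cortex.

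Fezf2 encodes a zinc-finger transcription factor that directs layer 5 neurons to project out of the cortex. Its signal was 1198, 1488 and 1505 on the non-deprived arrays and 948, 955 and 1145 on the deprived arrays. Every deprived array lay below every non-deprived array, although the highest deprived and the lowest non-deprived array were close. The means were 1397 ± 172 and 1016 ± 112 (SD, n = 3 arrays per group), 1.37-fold lower in deprived cortex. The log2 change was -0.45 (SE 0.13, 95% interval -0.75 to -0.15), with an unadjusted p of 0.0070 and an adjusted p of 0.77 by limma, so Fezf2 was not called. By p it ranked 66 of 7453 probe sets. An exact two-sided permutation test on this gene gave p = 0.1, the smallest that 3 against 3 arrays allow.

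The upstream sequences of 2 members are shown because they are the deep-layer and the upper-layer transcription factor whose mean lay farthest down and farthest up, respectively, in deprived cortex. Of the 10 genes, 8 had an entry in the RefSeq table (GRCm38.p6), and Ccn2 and Crym had none. Each line gives the 250 bases before the transcript start listed there, 5′ to 3′ on the minus strand, from chr14:12345866-12346115 for Fezf2 and chr4:22488367-22488616 for Pou3f2. Capitals mark matches to motifs of activity-dependent transcription factors, searched on both strands, where N allows any base. The AP-1 letters (TGANTCA) are a looser form of the site bound by Fos and Jun family dimers. The others were CRE (TGACGTCA, bound by CREB) and EGR (GCGNGGGCG, bound by Egr factors).
Fezf2: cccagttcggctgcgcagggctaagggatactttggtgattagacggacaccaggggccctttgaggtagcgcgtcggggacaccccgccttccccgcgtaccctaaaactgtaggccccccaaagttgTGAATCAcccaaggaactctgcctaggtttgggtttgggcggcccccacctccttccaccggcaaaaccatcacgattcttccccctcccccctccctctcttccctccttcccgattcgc
Pou3f2: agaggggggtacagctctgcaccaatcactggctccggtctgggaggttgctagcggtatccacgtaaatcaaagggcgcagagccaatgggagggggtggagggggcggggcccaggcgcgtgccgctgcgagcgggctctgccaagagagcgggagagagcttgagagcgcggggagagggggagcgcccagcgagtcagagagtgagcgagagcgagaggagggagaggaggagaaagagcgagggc
The Fezf2 window held 1 match to the looser AP-1 letters (TGAATCA, with A at the free position). It begins 121 bases before the start, and the Pou3f2 window held none of the 3 motifs. Over all 32851 such windows in the table, 6.75% held the AP-1 motif in this looser form, 1.55% the CRE and 4.70% the EGR motif. A match of letters is a description and does not show that a factor binds there.

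Ccn2 encodes a secreted matricellular protein and marks the neurons of layer 6b, the thin sheet above the white matter that derives from the subplate. It read 315, 379.9 and 489 on non-deprived and 256, 296 and 235 on deprived arrays. Here too the groups did not overlap, with the lowest non-deprived and the highest deprived array close to each other. The means were 395 ± 87.7 and 263 ± 31.2, 1.503-fold lower in deprived cortex. The log2 change of -0.54 (SE 0.21, 95% interval -1.005 to -0.08) had an unadjusted p of 0.025 and an adjusted p of 0.95 by limma, and the exact permutation p was again 0.1. The unadjusted p was 0.11 when non-deprived replicate 3 was left out, 0.057 when deprived replicate 1 was and 0.076 when deprived replicate 3 was, so that Ccn2 was then no longer under 0.05, while Fezf2 stayed under it whichever array was left out (largest unadjusted p = 0.029 by limma).

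Groups that do not overlap were found for 10.1% of all tested probe sets, with the deprived arrays lower for 4.59% and higher for 5.5%. Among the 9 tested genes at their brightest probe set there were 2, both lower. In these bulk samples, fewer cells of a type and less RNA per cell cannot be told apart.

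The remaining deep-layer genes did not share this pattern. Tbr1, a T-box transcription factor of layer 6 neurons that project to the thalamus, read 2989.7, 4022 and 2762 on non-deprived and 4285, 2854 and 3550.0 on deprived arrays. High and low values occurred in both groups, and the means of 3258 ± 671 and 3563 ± 715 differed by less than either SD. The log2 change was 0.13 (SE 0.17, 95% interval -0.25 to 0.51).

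Crym encodes mu-crystallin, which binds thyroid hormone in the cytoplasm. Its values were 323, 313 and 329.9 in non-deprived cortex, a narrow range, and 248.5, 346 and 313 in deprived cortex. The deprived values lay on both sides of that range, and the log2 change was -0.10 (SE 0.19, 95% interval -0.51 to 0.32).

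Pcp4 encodes a small calmodulin-binding protein found in layer 5 and 6 neurons and in several other brain regions. Its probe set read 6.70, 47.6 and 90.9 on non-deprived and 52.1, 20.5 and 24.8 on deprived arrays. The mean of 40.4 over all arrays is far under the 134.7 that the filter required, and it may not exceed background, so nothing can be read from its log2 change of -0.20, which was 0.30 when non-deprived replicate 3 was left out. A brighter probe set that the annotation gives to both Igsf5 and Pcp4 was counted for neither gene. It had 3423 ± 137 in non-deprived and 3226 ± 364 in deprived cortex, and its log2 change was -0.09 (SE 0.10).

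**Figure D1:**
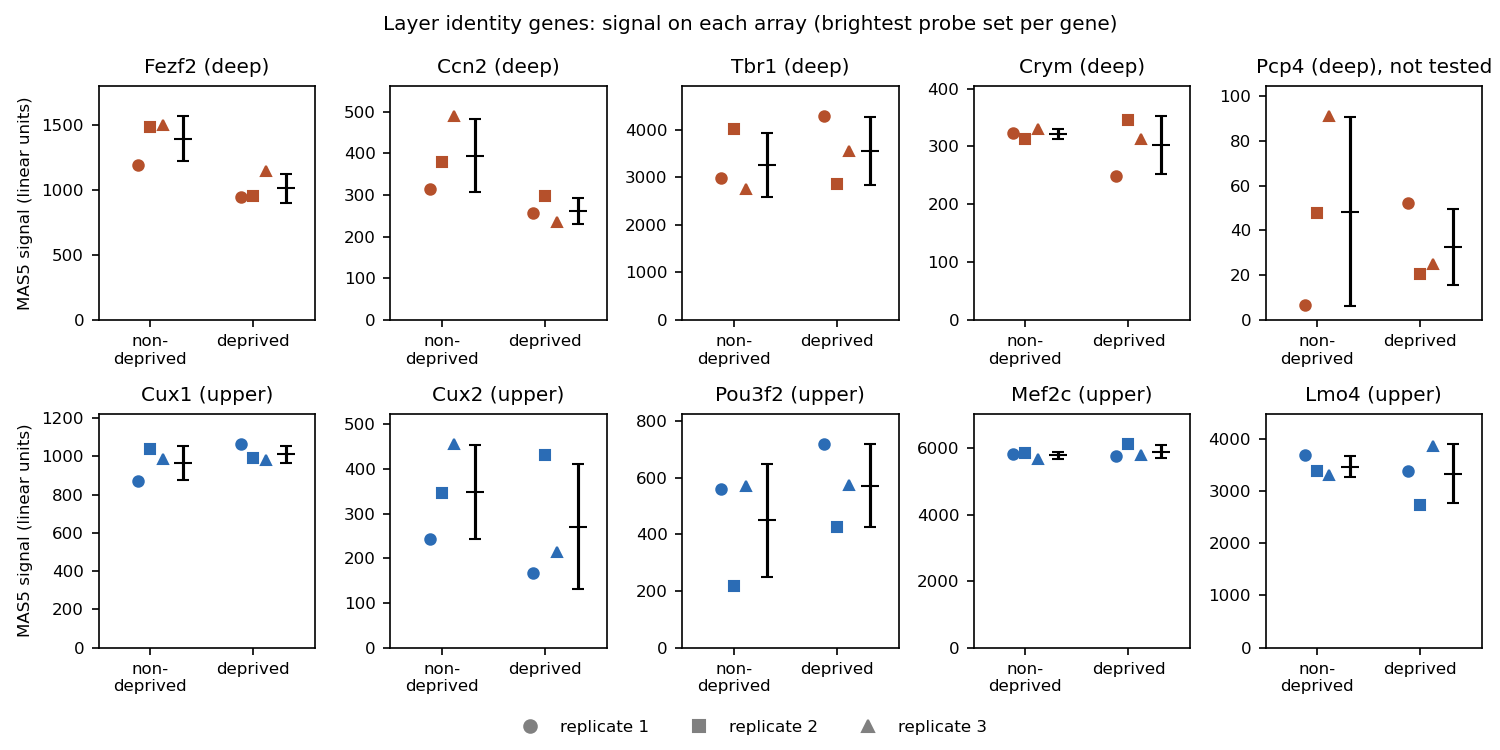
Signal of each layer gene on every array (linear MAS5 units, axes from 0, brightest probe set per gene; symbols give the replicate number, black bars the group mean ± SD, n = 3). Fezf2 and Ccn2 lie lower on all 3 deprived arrays, and in the other 8 genes the groups overlap.

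Among upper-layer genes, Cux1 and Cux2 encode related homeodomain transcription factors that mark layers 2 to 4 and shape dendrites there. Cux1 read 869, 1039.7 and 986 on non-deprived and 1064, 989 and 980.4 on deprived arrays. The groups overlapped, and the log2 change was 0.07 (SE 0.12, 95% interval -0.19 to 0.33). Its dim probe set had a mean of 85.5, was not tested, and differed by 0.11 on the log2 scale with an SE of 0.47.

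Cux2 read 243, 346 and 455 on non-deprived and 168, 430.0 and 214 on deprived arrays. Its deprived mean was lower, 270.4 ± 140.2 against 348 ± 106, but deprived replicate 2 was nearly as high as the highest non-deprived array. The log2 change of -0.41 was almost as large as that of Fezf2, with an SE of 0.34 and a 95% interval from -1.17 to 0.35 (unadjusted p = 0.26 and adjusted p = 0.97 by limma). A fall of 2-fold and a modest rise both lie inside that interval. Single arrays moved the value: it was -0.78 when deprived replicate 2 was left out (unadjusted p = 0.026 and adjusted p = 0.86 by limma), -0.64 when non-deprived replicate 1 was, -0.20 when non-deprived replicate 3 was and -0.14 when deprived replicate 1 was.

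Pou3f2, a POU-domain factor of upper-layer neurons whose upstream sequence stands beside that of Fezf2 above, had a higher mean in deprived cortex. It read 559, 218 and 571 on non-deprived and 717, 424.5 and 573 on deprived arrays. The lower non-deprived mean (449 ± 200.3 against 572 ± 146) rests on non-deprived replicate 2, the lowest of all 6 arrays. The log2 change was 0.42 (SE 0.34, 95% interval -0.34 to 1.18), and without that array it was -0.014. Replicate 2 was the lowest array in both groups. With the replicate number as a block the unadjusted p was 0.063 and the adjusted p 0.92 by limma, against 0.24 and 0.97 without the block.

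Mef2c, an activity-regulated transcription factor of cortical excitatory neurons, was the most precisely measured gene of the group. Its brightest probe set read 5828, 5859.9 and 5673 on non-deprived and 5772, 6124 and 5812 on deprived arrays. These values spread by a few percent, and the log2 change was 0.028 (SE 0.071, 95% interval -0.13 to 0.19). Mef2c has 4 probe sets, and its next 2 by signal gave -0.023 (SE 0.088) and 0.065 (SE 0.11).

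The dimmest Mef2c probe set gave a larger value. It read 911, 1002 and 839.9 on non-deprived and 1083, 1113 and 1049 on deprived arrays, so that the groups did not overlap and deprived cortex was higher. The log2 change was 0.24 (SE 0.12, 95% interval -0.021 to 0.49; unadjusted p = 0.068 and adjusted p = 0.97 by limma). The 95% intervals of the Mef2c probe sets overlap, and whether their changes differ was not tested. None was called.

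Lmo4, a LIM-domain protein that bridges transcription factors, read 3692, 3397 and 3312 on non-deprived and 3393, 2740.0 and 3869.8 on deprived arrays. The lowest and the highest values were both from deprived cortex. The log2 change was -0.07 (SE 0.12, 95% interval -0.35 to 0.21).

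**Figure D2:**
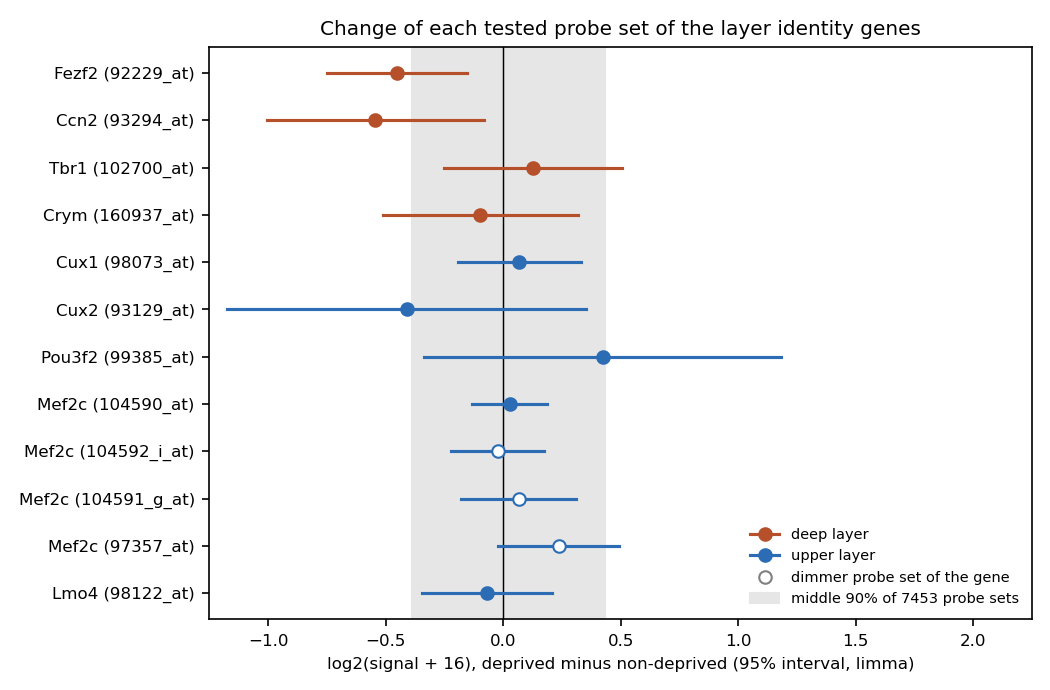
Log2 change (deprived minus non-deprived) and 95% interval from limma for the 12 tested probe sets of the 9 tested layer genes, with open points for dimmer probe sets of a gene and a grey band for the middle 90% of all 7453 probe sets (-0.39 to 0.43). The intervals of Fezf2 and Ccn2 do not reach 0, but no probe set passed after adjustment.

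How much change these arrays could miss differs by gene. For 5 of the 9 tested genes (Tbr1, Crym, Cux1, Mef2c and Lmo4) the whole 95% interval lay within a 1.5-fold change either way. The same held for 53.9% of all tested probe sets. Without deprived replicate 2 the count was 3 of 9. For Fezf2, Ccn2, Cux2 and Pou3f2 changes larger than 1.5-fold remain inside the interval. The SE of Cux2 and Pou3f2 was 0.34 each, against a median SE of 0.18 over all tested probe sets.

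The layers were then set against each other. Over the 5 deep-layer genes the median log2 change was -0.20, and over the 5 upper-layer genes it was 0.028, where the median of all tested probe sets was 0.010. Of the deep-layer genes 4 had a lower and 1 a higher mean in deprived cortex, and of the upper-layer genes 2 had a lower and 3 a higher one. These counts take each gene at its brightest probe set, the dim Pcp4 one included. The deep-layer median of -0.20 is the value of Pcp4 itself, and over the other 4 deep-layer genes it was -0.27. The upper-layer median of 0.028 is the value of Mef2c, which is described above for cortical excitatory neurons and not for upper layers alone.

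For each array the mean log2(signal + 16) of the upper-layer genes was taken from that of the deep-layer genes. Its absolute level depends on the probes and has no meaning, and differences between arrays do. It was -1.65, -1.03 and -1.21 on non-deprived and -1.43, -1.64 and -1.56 on deprived arrays. The non-deprived arrays held both the highest and the lowest value, so the groups overlapped. The deprived mean was lower by 0.24 (-1.298 ± 0.32 against -1.54 ± 0.11, SD, n = 3), less than the SD of the non-deprived arrays. The difference was -0.11 without non-deprived replicate 2 and -0.42 without non-deprived replicate 1.

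Pcp4, which stayed under the filter, carried much of the spread. With the other 4 deep-layer genes, a choice made after the values were seen, the measure was -0.62, -0.25 and -0.59 on non-deprived and -0.74, -0.76 and -0.71 on deprived arrays. The groups then did not overlap, and the difference was -0.25. The mean change was -0.24 over those 4 deep-layer genes and 0.0081 over the 5 upper-layer genes, so nearly all of the difference lay on the deep side, in Fezf2 and Ccn2. The upper-layer mean of nearly 0 holds Cux2 and Pou3f2 at opposite signs. No test was made of this measure, because its genes were chosen with earlier results of these data known.

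**Figure D3:**
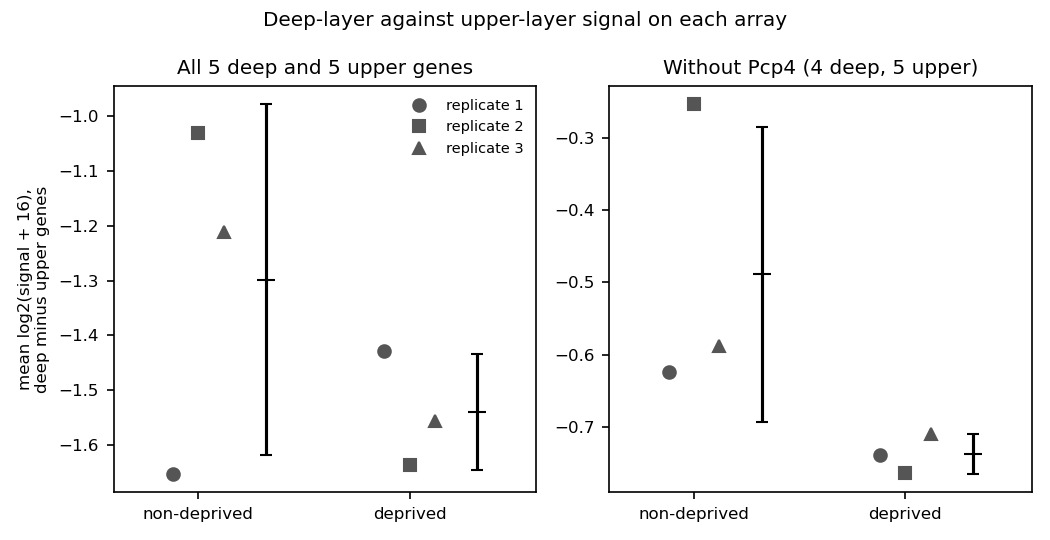
Mean log2(signal + 16) of deep-layer genes minus that of upper-layer genes on each array (black bars: group mean ± SD, n = 3; the vertical axes do not start at 0 and differ between panels), with all 10 genes on the left and without Pcp4 on the right. The groups overlap on the left, where non-deprived replicate 1 is the lowest array at -1.65, and do not overlap on the right.

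Other genes of the same layers are given for comparison. Of 18 further deep-layer genes 9 had a probe set and 6 were tested, with 3 lower, 3 higher, none called (smallest adjusted p = 0.97 by limma, and 0 at an unadjusted p under 0.05) and a median log2 change of -0.015. The pair with the smallest p went opposite ways. Tle4, a co-repressor of layer 6 neurons, read 172 ± 45.5 in non-deprived and 240.5 ± 16.003 in deprived cortex (log2 change 0.47, SE 0.25), and its groups did not overlap, with deprived cortex higher. Nr4a2, an orphan nuclear receptor of layer 6b that is also induced by activity, read 418 ± 38.9 and 323 ± 101 (log2 change -0.40, SE 0.24, and -0.69, SE 0.32, on its other probe set). The 6 tested genes thus lay on both sides of 0.

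Of 12 further upper-layer genes 6 had a probe set and 3 were tested, with 1 lower, 2 higher, none called (smallest adjusted p = 0.97 by limma, and 0 at an unadjusted p under 0.05) and a median of 0.071. The 3 genes under the filter turn that median to -0.045 over all 6. Of these 3, named after their values were seen, Inhba (an activin subunit) read 168 ± 2.46 and 89.1 ± 36.8. Nectin3 (a cell adhesion protein) read 70.1 ± 8.03 and 52.6 ± 10.6, and Rasgrf2 read 73.5 ± 31.99 and 102 ± 42.9. Inhba and Nectin3 were lower on every deprived array, but the nearest Nectin3 arrays stood at 62.5 and 62.3. How often groups do not overlap was not counted for probe sets under the filter. Plxnd1, a semaphorin receptor, read 1049.8 ± 51.8 and 1186 ± 63.4 (log2 change 0.17, SE 0.11), with deprived cortex higher on every array. Pou3f3, a relative of Pou3f2, read 305 ± 57.7 and 268 ± 15.4 (log2 change -0.16, SE 0.20). Layer 4, which receives the thalamic input, had a probe set for 1 of 5 listed genes, Rspo1, named here as the only one. It read 177 ± 38.8 and 84.0 ± 57.2, under the filter and with overlapping groups, and was not tested.

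**Figure D4:**
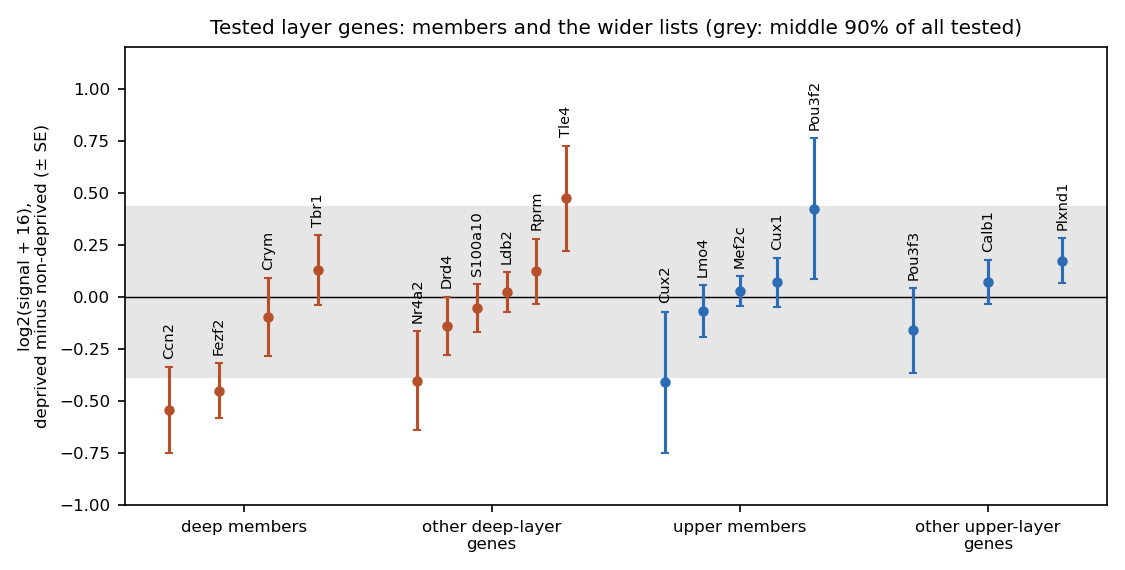
Log2 change ± SE of the tested members and of the tested genes on the wider deep-layer and upper-layer lists (brightest probe set per gene), with the middle 90% of all tested probe sets in grey. Ccn2, Fezf2, Nr4a2 and Cux2 lie below the band, Tle4 lies above it, and both layers hold genes on either side of 0.

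The arrays stood at a common 2% trimmed mean of 500.3, and log2 signals of array pairs correlated across probe sets at 0.948 to 0.958 within and 0.945 to 0.961 between groups. The 3′ control for 18S ribosomal RNA read 2689 on non-deprived replicate 3 and 661 to 981 on the other 5 arrays. The 5′ and middle 18S controls read 1978 and 586 on that array, 892 and 298 on deprived replicate 2, and at most 536 and 154 elsewhere. Without non-deprived replicate 3 the log2 change was -0.39 for Fezf2 and -0.38 for Ccn2. Without deprived replicate 2 it was -0.41 and -0.63, respectively. The activity-dependent genes Fos, Egr1, Junb and Nr4a1 all fell in the arrays labelled deprived (adjusted p at most 0.0014 by limma). All 5 cortical excitatory neuron markers with a probe set (of 8) passed the filter, with a median change of 0.13 that is the value of Tbr1, which stands on that list too; it was 0.019 to 0.24 when 1 array was left out.

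Since Ccn2 lies next to the white matter and several members are also expressed outside the cortex, markers of neighbouring tissue and other cells are given beside the layer genes. Summed signal of 7 oligodendrocyte and white matter markers ranged from 11177 to 12308 on non-deprived and from 11581 to 13111 on deprived arrays. For 4 hippocampal markers the ranges were 1135 to 1464 and 1448 to 1977, for 4 thalamic markers 2105 to 3017 and 1957 to 2439, for 2 striatal markers 249.1 to 313 and 211 to 312, and for 5 choroid plexus and meninges markers 16358 to 23855 and 21636 to 22994. Each pair of ranges overlapped. Summed GABAergic neuron markers (6 genes) did not, with 14959 to 15724 on non-deprived and 12211 to 13838 on deprived arrays. A sum follows its brightest probe sets, as the choroid plexus one does Ptgds. Most of the GABAergic fall lay in Sst (4521 ± 304 against 3446 ± 51.0) and Pvalb (4917 ± 269 against 4149 ± 582). The dim Pvalb probe set had a log2 change of -0.014. Of the 6 genes 5 were lower and 1 higher. Median log2 changes of tested markers were 0.099 for oligodendrocytes, 0.17 for choroid plexus and meninges (2 tested genes), -0.18 for the thalamus (3 of 3 lower) and -0.13 for GABAergic neurons. Each of these medians kept its sign when 1 array was left out. So did the 1 tested hippocampal marker, Wfs1, at 0.41 (unadjusted p = 0.042 by limma). The medians for astrocytes (0.084), microglia (0.063) and endothelium and vessel wall (-0.26) and the value of the 1 tested striatal marker, Drd2 (-0.045), turned sign when 1 array was left out, with ranges from -0.0054 to 0.17, -0.056 to 0.12, -0.41 to 0.0998 and -0.17 to 0.19. None of these markers was called (smallest adjusted p = 0.26 by limma). Their part in the readings of Fezf2 and Ccn2 was not tested.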

How the data were processed

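Total RNA of visual cortex was hybridised to 6 expression arrays, 3 per hemisphere. The authors deposited signal intensity on a linear scale for 12488 probe sets, made with MAS5 per the submitters' processing notes; its version and scaling settings are not given in the sources used here. All arrays had the same 2% trimmed mean as deposited, so no further scaling was applied. The 66 control probe sets were set aside. Detection calls and scanner files were not analysed here.

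Groups came from the sample titles. The 60% of probe sets with the highest mean signal (7453, lowest mean 134.7) were tested on log2(signal + 16) with limma 3.58.1 in R 4.3.3 (lmFit, eBayes with an intensity trend, group only, two-sided, Benjamini-Hochberg over all probe sets tested). The script was tested on simulated data. Symbols came from the platform annotation and were matched through Entrez IDs to RefSeq names (10839 of 10855 probe sets with 1 symbol); 396 with several symbols and 1237 others were left unnamed. Members and lists were chosen with earlier results of these data known. Genes named were all members, the 2 with the smallest p in each wider layer list, and 4 activity-dependent genes. Marker genes named were among the 2 with the smallest p in their list. No label says that replicate numbers pair the arrays. Deviations from the group means correlated at 0.0030, 0.049 and -0.020 for same-numbered arrays and at -0.098 to 0.10 for the others. With 3 arrays per group these values cannot tell whether the arrays are paired. Alternatives were quantile normalization, pseudocounts of 1 and 64, no filter, the top 40%, leave-one-out of arrays, a block for the replicate number, no intensity trend and averaged probe sets per gene. The number of arrays limits the precision.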

Additional observations from a re-analysis of the deposited data

How the results depend on the processing

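No tested member was called under any of the 14 alternatives run for that count, and none of the tested genes on the wider layer lists. Pcp4 was tested only without the filter, and Crym and Cux2 were not tested with the top 40%. Fezf2 and Ccn2 read lower in deprived cortex under all 14, with log2 changes from -0.56 to -0.39 and from -0.69 to -0.38 and adjusted p from 0.39 and 0.54 upward by limma. Their groups do not overlap, so leaving out an array or changing the pseudocount could not turn the sign. The filter, block, trend and averaging settings leave the log2 changes of these genes as they are by construction. The deep minus upper difference was negative under all 15 alternatives, from -0.42 to -0.11. Leaving out the filter or adding the block returns its main value of -0.24 by construction. The settings that dropped or replaced the Pcp4 probe set were not planned. The deep-layer median was -0.45 with the top 40% of probe sets by signal, a setting that leaves fewer genes, and ranged from -0.56 to -0.081 when 1 array was left out. It was -0.27 without Pcp4 and -0.098 with the probe set shared by Igsf5 and Pcp4 in its place, both chosen after seeing the data. The upper-layer median was 0.049 with the top 40%, 0.077 with averaged probe sets per gene, and -0.014 to 0.065 when 1 array was left out. Leaving out 1 array turned the sign for Pcp4 (-0.82 to 0.30), Tbr1 (-0.014 to 0.29), Crym (-0.20 to 0.030), Cux1 (-0.0033 to 0.12), Pou3f2 (-0.014 to 0.65) and Lmo4 (-0.18 to 0.065). The number of probe sets called in all was 13, and 7 to 10 when 1 array was left out (7 when non-deprived replicate 2 was dropped, 8 when replicate 3 of either group was). With the replicate number as a block, 10 probe sets were called and 0 members. With the top 40%, Cldn5 was the only endothelial and vessel wall marker left, and its value of 0.40 stood as their median. The probe set counted for Pcp4 is limited by its dim signal, which the brighter one shared with Igsf5 is not. Cux2 and Pou3f2 are limited by their spread between arrays.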
